A study of Mus musculus with 20 samples.

Results

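Genes that mark astrocytes, or respond when astrocytes become reactive, were followed in the hippocampus of aged mice carrying human APOE. The 10 genes were chosen by name from the 33119 genes of the count table, 6 of them as reactive genes (Gfap, Vim, Cd44, Lcn2, Osmr and Steap4) and 4 as genes of astrocyte identity and transport (Aqp4, Aldh1l1, Slc1a2 and Slc1a3), and all 10 were among the 21724 genes with enough reads to be tested. RNA was sequenced from the hippocampus of 20 mice aged 16 months, with 5 mice in each of 4 groups. Mice S144 to S148 were hAPOE3 females, S154 to S158 were hAPOE3 males, S164 to S168 were hAPOE4 females and S174 to S178 were hAPOE4 males. All mice were on the C57BL/6 background and homozygous for a targeted replacement that puts human APOE3 or APOE4 in the place of mouse Apoe, so no group had the mouse protein and the genotypes compared are 2 human alleles. The mice were perfused with saline before dissection.

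Astrocytes supply neurons with metabolites, clear glutamate from the synapse and cover brain capillaries with their endfeet, and in the brain they are the main source of APOE. When tissue is injured or inflamed, they thicken their cytoskeleton and switch on genes of the acute phase, a state called reactive, which is driven in part by cytokines of the IL-6 family acting through gp130 and the transcription factor STAT3. The identity genes studied here encode the water channel of the endfoot, a folate enzyme used as a pan-astrocyte marker and the pair of transporters that take up most synaptic glutamate.

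Each library held between 35778879 and 52520279 counts, and levels are given as CPM, the counts of a gene relative to the scaled library total. Markers of other cells were present throughout. The 5 red cell markers, in tissue perfused before dissection, summed to as little as 9.18 CPM in S168 and as much as 303 CPM in S144. The 7 neuronal markers summed to 4630 to 7061 CPM in the 20 mice, all 7 being above 0 in every mouse, as hippocampal tissue should show. Markers of the choroid plexus, the epithelium that makes cerebrospinal fluid beside the hippocampus, summed to as little as 80.2 CPM and as much as 6648 CPM, and the medians were 131.7 and 163 CPM in hAPOE3 and hAPOE4 males beside 2720 and 4714 CPM in hAPOE3 and hAPOE4 females. All 12 choroid plexus markers had the higher estimate in females. The median log2 fold change was 1.31 in hAPOE3 mice and 1.86 in hAPOE4 mice, though 0 of 12 passed the test. Single mice of the sexes overlapped. The sum was 80.2 CPM in hAPOE3 female S146 and 104 CPM in hAPOE4 female S168. It was 3336 CPM in hAPOE3 male S158 and 2939 CPM in hAPOE4 male S176. A difference in choroid plexus RNA may thus enter each comparison of females and males below. All 20 other astrocyte markers passed the filter on low counts. Since the tissue was sequenced in bulk, fewer astrocytes and less RNA per astrocyte cannot be told apart in any value given here.

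The 10 genes covered a very wide range of levels. Divided by the length of the longest coding transcript, the glial glutamate transporter Slc1a2 led with 216 ± 48.2 CPM per kb (SD over all 20 mice), followed by Gfap at 143 ± 20.2 CPM per kb and Slc1a3 at 130.1 ± 19.3 CPM per kb. The ranges of neighbours in this order overlapped among these 3 genes. Vim at 24.8 ± 5.64 CPM per kb, Aqp4 at 24.5 ± 5.28 CPM per kb and Aldh1l1 at 10.9 ± 1.63 CPM per kb formed a middle set whose highest value lay below the lowest of the leading 3. The other reactive genes were low, with Osmr at 1.63 ± 0.336 CPM per kb, Cd44 at 1.02 ± 0.319 CPM per kb, Lcn2 at 0.482 ± 0.375 CPM per kb and Steap4 at 0.236 ± 0.236 CPM per kb. The order depends on the length used. With the median transcript length in place of the longest, the mean level was 1280 CPM per kb for Slc1a2, 221.5 for Slc1a3, 144.7 for Gfap and 97.3 for Aqp4, and Gfap and Slc1a3, Vim and Aqp4, and Osmr and Cd44 each changed places. Osmr, Cd44, Lcn2 and Steap4 were read as 1 to 606 counts per library.

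**Figure D1:**
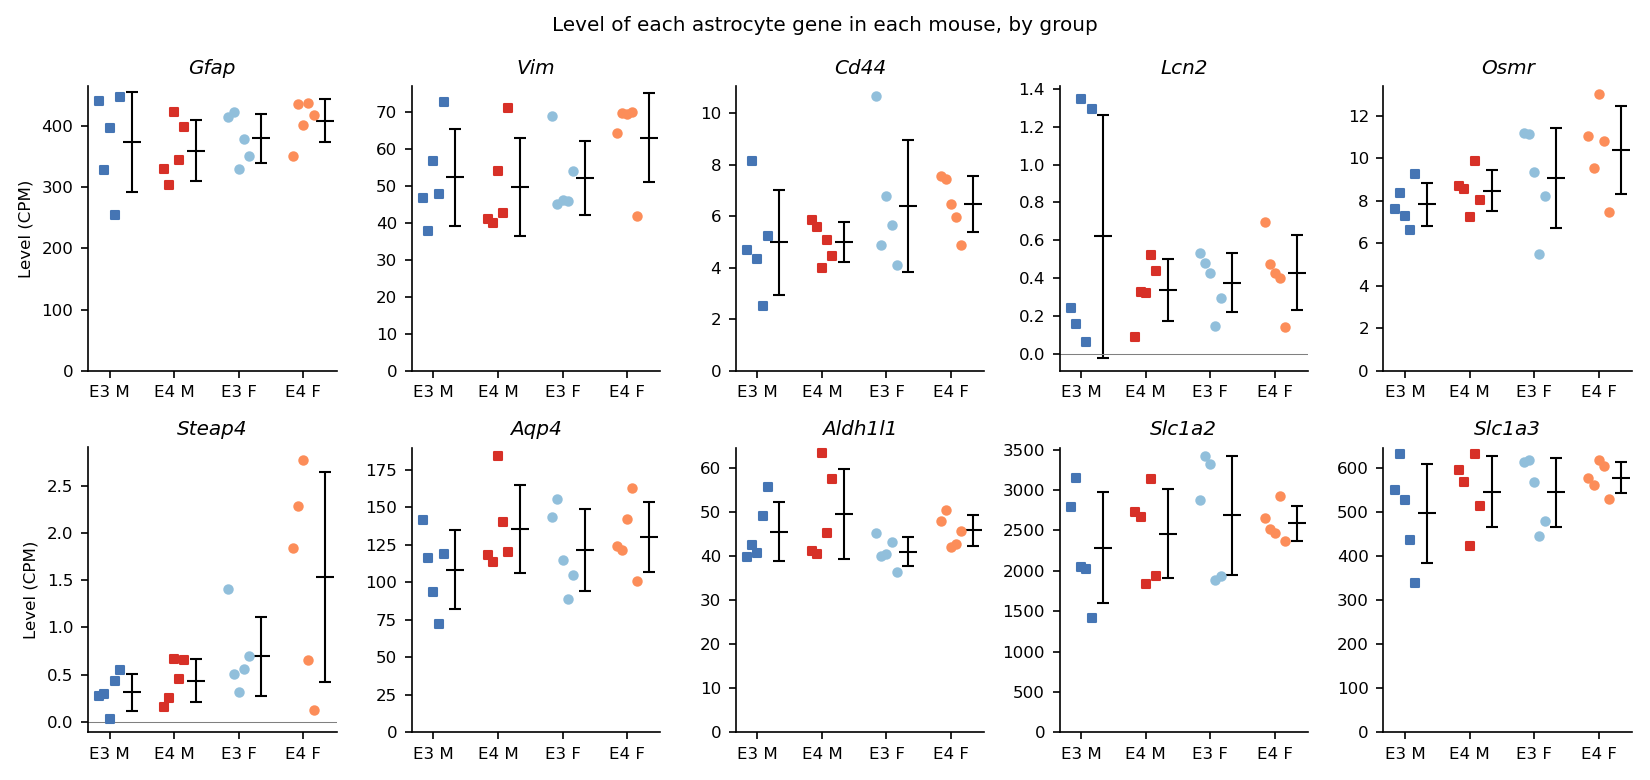
Level of each of the 10 astrocyte genes in CPM (vertical axis, from 0) in each of the 20 mice, by group on the horizontal axis (E3 and E4 for hAPOE3 and hAPOE4, M and F for males and females), with the mean and SD of the 5 mice as a bar. The groups overlap for all 10 genes, and Steap4 is above 1 CPM in 4 female mice.

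The first question was whether APOE genotype or sex changed these genes. In none of the 5 comparisons planned did any of the 10 genes pass the test. For none of the 10, in the 4 comparisons between groups of mice, did the 5 values of a group lie clear of the other 5. The share of all genes lying clear was not computed, so that count of overlaps is a description only. The test was edgeR's quasi-likelihood test with Benjamini-Hochberg adjustment over all 21724 genes, called at an adjusted p under 0.05, and it called 0.621% of all genes between hAPOE4 and hAPOE3 males, 0.667% between hAPOE4 and hAPOE3 females, 0.0414% between hAPOE3 females and males, 0.437% between hAPOE4 females and males, and 0.184% for the interaction of sex and APOE. A count of 0 of 10 cannot be told from these shares. At an unadjusted p under 0.05, where the shares of all genes were 9.06%, 10.1%, 5.22%, 5.80% and 2.54% in the same order, the count of the 10 genes was 0, 0, 0, 1 and 0, the 1 gene being Steap4. DESeq2 called 0 of the 10 in each comparison as well, with the same counts of 0, 0, 0, 1 and 0 at an unadjusted p under 0.05.

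The directions were mostly upward and small. Between hAPOE4 and hAPOE3 males, 7 of the 10 genes had a higher estimate in hAPOE4, with a median log2 fold change of 0.11 beside 0.002 for all genes. Between the female groups 9 of the 10 were higher in hAPOE4, with a median of 0.13 beside 0.001 for all genes. The corresponding medians for females against males were 0.15 within hAPOE3 and 0.24 within hAPOE4, where all genes had 0.003 and -0.009. These are counts and medians of values that each missed the threshold.

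**Figure D2:**
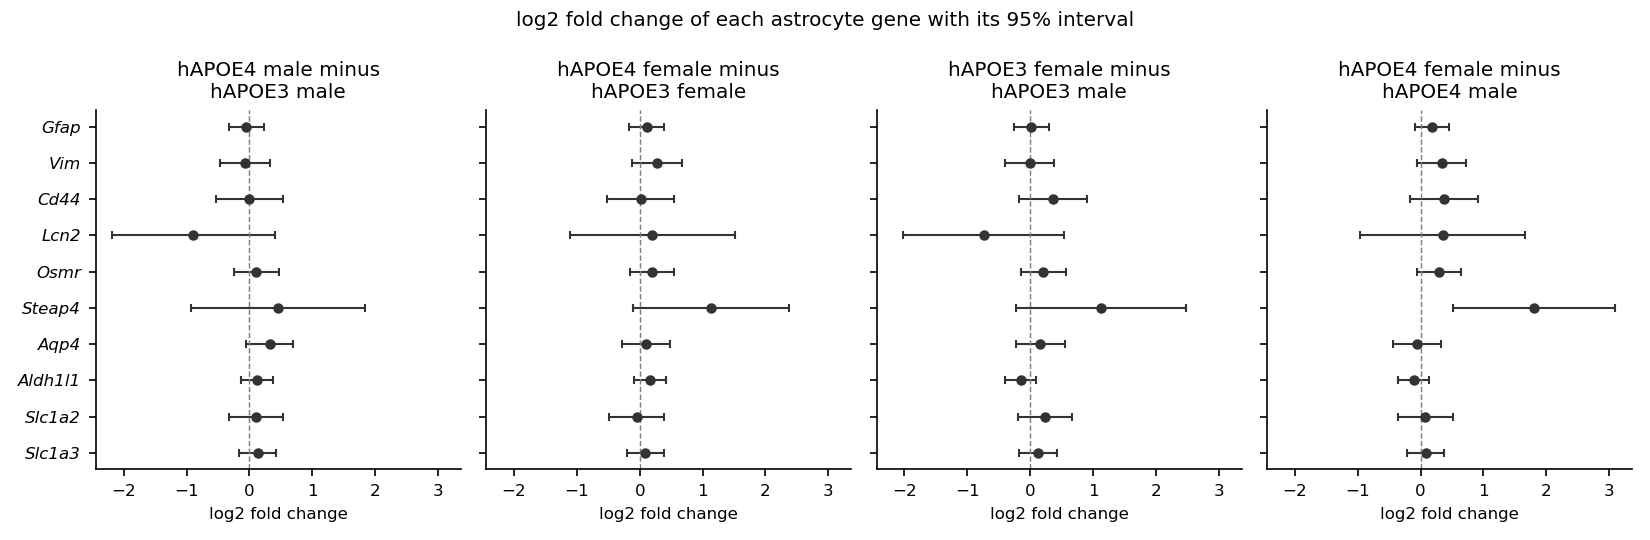
log2 fold change (horizontal axis) of each of the 10 genes in the 4 comparisons between groups, with the 95% interval of edgeR's fit as a bar and 0 as a dashed line. Every interval spans 0 but that of Steap4 between hAPOE4 females and males (0.52 to 3.10), and the intervals of Lcn2 and Steap4 are the widest.

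Gfap, the intermediate filament protein by which astrocytes are recognised (GRCm38 chromosome 11, 102887336 to 102900912, minus strand), had close group means but varied between mice. In hAPOE3 males its SD was 21.9% of the mean, where counting error alone would give 0.784%. Its level was 439.7, 328, 396, 254 and 446 CPM in hAPOE3 males S154 to S158, and 329, 304, 422, 343 and 398 CPM in hAPOE4 males S174 to S178. The females had 414, 422, 329, 379 and 350.5 CPM in hAPOE3 mice S144 to S148, and 350.4, 435, 400.4, 437 and 417 CPM in hAPOE4 mice S164 to S168. All 4 groups overlapped, and the lowest and the highest mouse, S157 and S158, were both hAPOE3 males.

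The group means of Gfap were 373 ± 81.6 CPM and 359 ± 49.1 CPM in hAPOE3 and hAPOE4 males, and 379 ± 40.1 CPM and 408 ± 35.5 CPM in hAPOE3 and hAPOE4 females (SD, n = 5). The log2 fold change from hAPOE3 to hAPOE4 was -0.05 in males, with a 95% interval from -0.33 to 0.23, and 0.11 in females, with an interval from -0.17 to 0.39. Neither passed the test (adjusted p = 0.912 and 0.860 by edgeR). In fold terms the interval ran from 0.794 to 1.17 in males and from 0.887 to 1.31 in females, which limits the size that a change of Gfap could have had.

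Vim, the partner filament that is abundant in reactive and immature astrocytes but also in vessel walls and fibroblasts, had the group means 52.4 ± 13.2 CPM in hAPOE3 males, 49.8 ± 13.2 CPM in hAPOE4 males, 52.1 ± 10.1 CPM in hAPOE3 females and 63.1 ± 12.1 CPM in hAPOE4 females. The hAPOE4 females held 4 values from 64.2 to 70.1 CPM and 1 low value of 41.9 CPM in mouse S168. The log2 fold change from hAPOE4 males to hAPOE4 females was 0.34 ± 0.19 (SE), with an interval from -0.05 to 0.73 and an adjusted p of 0.948 by edgeR.

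Within the hAPOE4 females, Vim was high where markers of the meninges were high. The summed level of 8 leptomeningeal fibroblast markers, all above 0 in every mouse, ranged over 71.9 to 177.8 CPM in hAPOE3 males, 81.0 to 219.7 CPM in hAPOE4 males, 91.1 to 329 CPM in hAPOE3 females and 85.2 to 348 CPM in hAPOE4 females. The 4 hAPOE4 females with high Vim had sums of 221 to 348 CPM and S168 had 85.2 CPM. Over all mice the highest Vim levels, 72.6 CPM in S158 and 71.2 CPM in S178, came with fibroblast sums of only 177.8 and 207.5 CPM. The 8 markers of pericytes and smooth muscle summed to 305 to 342 CPM in those 4 females and to 188 CPM in S168. They summed to 320 CPM in S158 and 346 CPM in S178. With the fibroblast score in the fit, the log2 fold change of Vim between hAPOE4 females and males was -0.04 in place of 0.34. Whether Vim from fibroblasts or from vessel walls accounts for the difference was not tested.

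Cd44, the receptor for hyaluronan that reactive astrocytes display, was at 4.98 ± 2.04 CPM in hAPOE3 males, 4.99 ± 0.769 CPM in hAPOE4 males, 6.41 ± 2.56 CPM in hAPOE3 females and 6.47 ± 1.10 CPM in hAPOE4 females. Its log2 fold change between genotypes was 0.00 in males and 0.02 in females, each with an SE of 0.26. The mice ranged from 2.52 CPM in S157 to 10.6 CPM in S144, both hAPOE3. None of the 7 genes that make, cut or bind hyaluronan (Has1, Has2 and Has3 as synthases, Hyal1, Hyal2 and Cemip as degrading proteins, and Tnfaip6) passed the test in any planned comparison.

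Lcn2, which encodes the iron-siderophore carrier lipocalin 2 and is one of the most inducible genes of reactive astrocytes, stayed low. It was read as 3 to 70 counts per library, which is 0.064 to 1.35 CPM. In hAPOE3 males the values were 0.241, 0.158, 1.35, 0.064 and 1.29 CPM for S154 to S158. In hAPOE4 males they were 0.0883, 0.326, 0.322, 0.524 and 0.439 CPM for S174 to S178. The lowest and both of the highest mice thus came from 1 group, the hAPOE3 males, and the other 3 groups lay within 0.0883 to 0.698 CPM.

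Between hAPOE4 and hAPOE3 males, Lcn2 had a log2 fold change of -0.89 ± 0.62 (SE), with a 95% interval from -2.18 to 0.40 and an adjusted p of 0.647 by edgeR, and in females it was 0.20 ± 0.63. The interval in males held both no change and a fall to 0.221 of the hAPOE3 level. The SD of Lcn2 among hAPOE3 males was 103% of the mean, where counting error alone would give 18.6%. Neutrophils also express Lcn2, and their 7 markers summed to 0.0469 to 1.97 CPM over the 20 mice with none above 0 in every mouse. In S156 and S158, the mice with the most Lcn2, that sum was 0.120 and 0.905 CPM.

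Osmr, the receptor subunit for oncostatin M, was the least variable of the low reactive genes. Its group means were 7.83 ± 1.01 CPM in hAPOE3 males, 8.48 ± 0.969 CPM in hAPOE4 males, 9.08 ± 2.36 CPM in hAPOE3 females and 10.4 ± 2.04 CPM in hAPOE4 females. The order of the means placed both female groups above both male groups, while the single values overlapped, with 5.51 to 13.0 CPM in females and 6.64 to 9.87 CPM in males. The log2 fold change from males to females was 0.21 ± 0.17 in hAPOE3 mice and 0.29 ± 0.17 in hAPOE4 mice (SE), and the adjusted p was 0.809 and 0.978 by edgeR.

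Steap4, a metalloreductase of the cell surface that is induced by inflammatory cytokines, was the gene whose level differed most between mice, by 115-fold from the lowest to the highest. The lowest value rests on 1 count in S156. From the next lowest mouse, S168 with 5 counts, to the highest it was 23.2-fold, beside 21.0-fold for Lcn2 over all 20 mice. Its values were 0.268, 0.290, 0.024, 0.427 and 0.554 CPM in hAPOE3 males S154 to S158, and 0.154, 0.251, 0.664, 0.453 and 0.658 CPM in hAPOE4 males S174 to S178. In females it was 1.41, 0.503, 0.314, 0.563 and 0.693 CPM in hAPOE3 mice S144 to S148, and in hAPOE4 mice S164 to S168 it was 1.84, 2.28, 2.77, 0.656 and 0.119 CPM. Only 4 mice exceeded 1 CPM, all female, and S168 of the same group as 3 of them was lower than every hAPOE4 male.

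The means of Steap4 were 1.53 ± 1.11 CPM in hAPOE4 females and 0.436 ± 0.232 CPM in hAPOE4 males, a log2 fold change of 1.81 ± 0.62 (SE) with an interval from 0.52 to 3.10. The unadjusted p was 0.0082 and the adjusted p 0.503 by edgeR, so the difference did not pass the test. From hAPOE3 to hAPOE4 the log2 fold change was 0.45 ± 0.66 in males and 1.14 ± 0.60 in females, and the interaction of sex and APOE was 0.68 ± 0.90.

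The mice with high Steap4 were the mice with the most choroid plexus RNA. The summed level of 12 choroid plexus markers, among them Ttr, all above 0 in every mouse, ran from 83.7 to 3336 CPM in hAPOE3 males, from 122 to 2939 CPM in hAPOE4 males, from 80.2 to 3921 CPM in hAPOE3 females and from 104 to 6648 CPM in hAPOE4 females. S166, S165 and S164 held the 3 highest sums, 6648, 6299 and 4714 CPM, in the order of their Steap4 levels. S144, the other mouse above 1 CPM, had 3917 CPM, but S148 reached 3921 CPM with Steap4 at 0.693 CPM. The same 4 mice had the 4 highest sums of leptomeningeal fibroblast markers, 329 to 348 CPM.

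With the choroid plexus score as a covariate, the log2 fold change of Steap4 between hAPOE4 females and males was 0.50 in place of 1.81, and with the fibroblast score it was 0.33. Leaving out the 4 mice of the highest choroid plexus score gave -0.16, but these are also the 4 mice with the most Steap4 and 3 of the 5 hAPOE4 females, so that fall is fixed by the choice of mice. The part of either tissue in the Steap4 values was not tested beyond these fits. No r is given, because the choroid plexus sums were spread unevenly, with many mice at 80.2 to 163 CPM and the others at 533 to 6648 CPM.

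**Figure D3:**
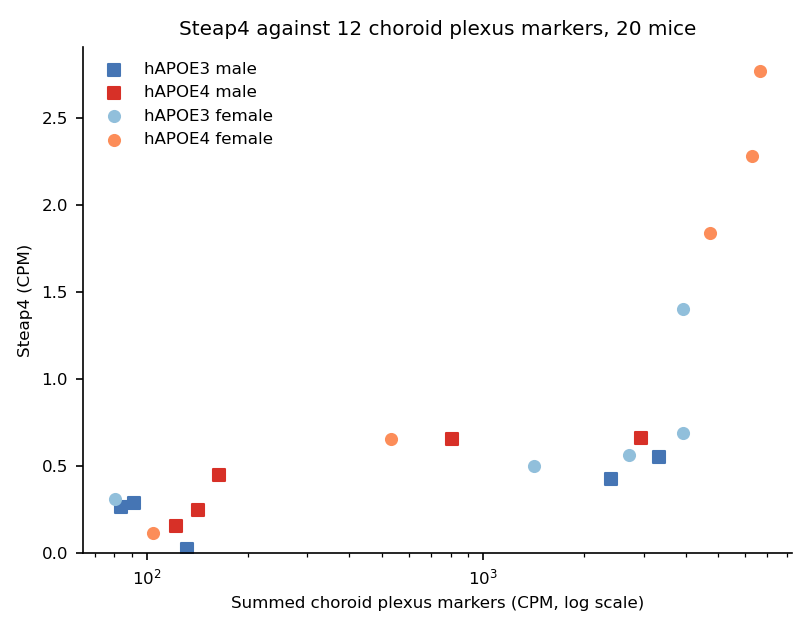
Steap4 in CPM (vertical axis) against the summed level of 12 choroid plexus markers in CPM (horizontal axis, log scale), 1 point a mouse, by group. The 4 mice above 1 CPM of Steap4 lie at sums of 3917 to 6648 CPM, and the mice with sums of 809 CPM or less have at most 0.658 CPM.

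Signalling to these genes was looked at through a list of 14 genes of the IL-6 family and STAT3 pathway. Of these, 12 had enough reads to be tested, Osm and Il6 being too low, and 0 of 12 passed the test in any planned comparison. Il6st, the shared receptor subunit gp130 that pairs with the Osmr product, had estimates of 0.40 ± 0.18 in males and 0.32 ± 0.18 in females on the log2 scale from hAPOE3 to hAPOE4, and Stat3 itself had 0.25 ± 0.13 and 0.22 ± 0.13 (SE), with adjusted p-values from 0.514 to 0.617 by edgeR. Cntf, a ligand of this family, had the lowest unadjusted p of the list between male genotypes, and its estimate was lower in hAPOE4, at -0.50 ± 0.17 in males (unadjusted p = 0.0086, adjusted p = 0.330 by edgeR) and -0.08 ± 0.17 in females. The median over the 12 genes was 0.06 in males and 0.05 in females.

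Promoter sequence was searched for the STAT motif TTCNNNGAA, which reads the same on both strands, in the 250 bases before the start of each gene in RefSeq (GRCm38.p6). The table held a window for 9 of the 10 genes. The windows of Gfap and Slc1a2 lie inside the GENCODE gene, so the bases before that start were not searched for these 2 genes. The Steap4 window runs past the GENCODE start at 7960457. The motif was found in 2 of the 9 windows, those of Steap4 and Slc1a3, and in 7.02% of all 32851 windows. Steap4 is shown because its level varied most and Slc1a3 because it moved together with Slc1a2, and capitals mark the motif, which begins 116 bases before the start of Steap4 and 96 bases before that of Slc1a3. The Steap4 window is chr5:7960222-7960471 on the plus strand and the Slc1a3 window chr15:8710808-8711057 on the minus strand, both written 5′ to 3′ towards the gene. A match is a stretch of letters and not a binding site.
Steap4: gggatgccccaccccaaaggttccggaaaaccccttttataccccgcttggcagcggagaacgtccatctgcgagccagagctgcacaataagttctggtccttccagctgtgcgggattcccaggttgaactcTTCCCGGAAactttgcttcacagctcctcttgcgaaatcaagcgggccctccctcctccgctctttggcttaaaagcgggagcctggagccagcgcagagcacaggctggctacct
Slc1a3: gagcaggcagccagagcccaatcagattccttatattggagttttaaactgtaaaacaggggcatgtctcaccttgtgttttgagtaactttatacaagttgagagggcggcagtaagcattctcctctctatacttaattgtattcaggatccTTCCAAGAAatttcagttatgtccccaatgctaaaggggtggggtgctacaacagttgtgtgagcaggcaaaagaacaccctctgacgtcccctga

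The 4 genes of astrocyte identity had log2 fold changes from -0.15 to 0.32 in the 4 comparisons between groups, where Gfap had -0.05 to 0.18, and none passed the test. Aldh1l1, the folate enzyme that marks astrocytes of every region, had 45.6 ± 6.68 CPM in hAPOE3 males, 49.6 ± 10.2 CPM in hAPOE4 males, 41.1 ± 3.37 CPM in hAPOE3 females and 45.9 ± 3.55 CPM in hAPOE4 females. Between genotypes the log2 fold change was 0.12 in males and 0.16 in females, each with an SE of 0.12, and the intervals reached 0.37 and 0.41 at most. Its highest values, 63.4 and 57.5 CPM in hAPOE4 males S176 and S178 and 55.7 CPM in hAPOE3 male S158, belonged to 3 of the mice with low Slc1a2.

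Aqp4, the water channel that astrocytes place at their endfeet, had the largest estimate among the identity genes. Its values in hAPOE3 males S154 to S158 were 142, 116, 93.3, 72.2 and 119 CPM, and in hAPOE4 males S174 to S178 they were 118, 114, 184, 140.3 and 120.5 CPM. Both groups overlapped, the lowest mouse being S157 and the highest S176. In males the log2 fold change was 0.32 ± 0.18 (SE), with an interval from -0.06 to 0.70 and an adjusted p of 0.598 by edgeR, and in females it was 0.10 ± 0.18. Of 9 genes that anchor Aqp4 at the endfoot, among them dystroglycan (Dag1) and dystrophin (Dmd), 0 passed the test in any planned comparison, and their median log2 fold change was 0.13 in males and 0.06 in females.

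Slc1a2 and Slc1a3 encode GLT-1 and GLAST, the transporters that carry glutamate into astrocytes. Slc1a2 (GRCm38 chromosome 2, 102658659 to 102790784, plus strand) had 2795, 3146, 2053, 2019 and 1415 CPM in hAPOE3 males S154 to S158, and 2724, 2661, 1840, 3133 and 1937 CPM in hAPOE4 males S174 to S178. In females it had 2874, 3426, 3318, 1886 and 1940 CPM in hAPOE3 mice S144 to S148, and 2654, 2523, 2465, 2932 and 2372 CPM in hAPOE4 mice S164 to S168. The hAPOE4 females spanned 2372 to 2932 CPM, inside the range of each other group. Of the hAPOE3 mice, S147, S148, S156, S157 and S158 lay below that span, at 2053 CPM or less, S144 and S154 lay inside it, and S145, S146 and S155 lay above it, at 3146 CPM or more.

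Slc1a3 followed the same mice. Among hAPOE3 mice the 5 with the lowest Slc1a2 were also the 5 with the lowest Slc1a3, at 339.8 to 528 CPM beside 550.0 to 632 CPM in the others. Over the 20 mice, as deviations of log2 CPM from the group mean, Slc1a2 and Slc1a3 had r = 0.91 (Spearman's rho 0.88), a description in which the points share library, depth and tissue composition. The group means of Slc1a3 were 497 ± 112 CPM in hAPOE3 males, 546 ± 80.9 CPM in hAPOE4 males, 545 ± 78.4 CPM in hAPOE3 females and 578 ± 35.4 CPM in hAPOE4 females.

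Neither transporter passed the test between genotypes. The log2 fold change of Slc1a2 was 0.11 ± 0.21 in males and -0.05 ± 0.21 in females, and that of Slc1a3 was 0.14 ± 0.14 and 0.09 ± 0.14 (SE). The SD of Slc1a2 was 30.0% of the mean in hAPOE3 males, 27.4% in hAPOE3 females, 22.5% in hAPOE4 males and 8.39% in hAPOE4 females. That difference in spread was not tested.

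**Figure D4:**
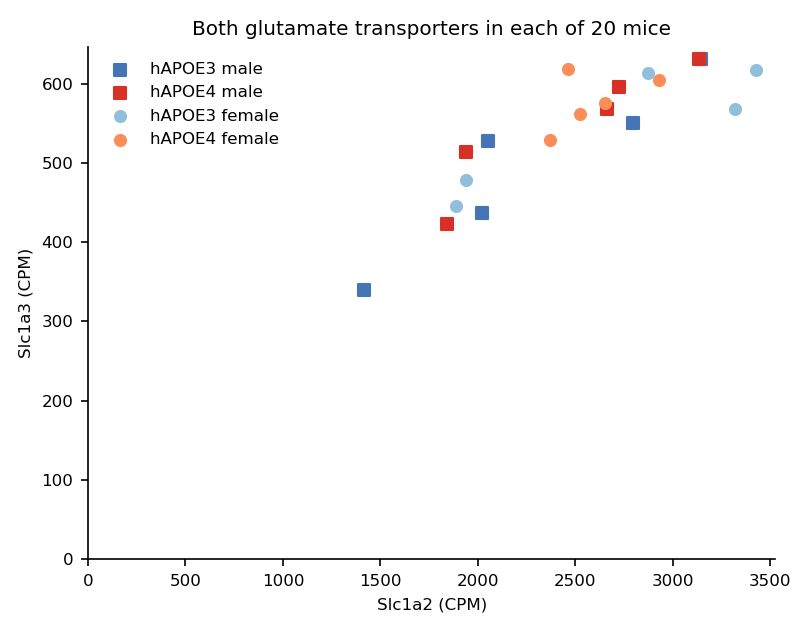
Slc1a3 (vertical axis, CPM) against Slc1a2 (horizontal axis, CPM) in each of the 20 mice, by group, both axes from 0. Mouse S158 is lowest for both genes, at 1415 and 339.8 CPM, and the hAPOE4 females form the tightest group.

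Oligodendrocyte RNA was high in most of the mice with low transporter levels. Of the 7 mice with the lowest Slc1a2, at 2053 CPM or less, 6 were among the 7 mice with the highest sums of 6 oligodendrocyte markers. S158 and S176, which had the lowest levels of both genes, held the highest sums, 12920 and 9213 CPM, where the other 18 mice had 4046 to 6236 CPM, and the lowest sums of the 7 neuronal markers, 4635 and 4630 CPM. Of the other low mice, S178, S157, S148 and S147 had sums of 6236, 6125, 5802 and 5715 CPM, and S156 had 4885 CPM. The 13 mice with higher Slc1a2 had 4046 to 5954 CPM. With the oligodendrocyte score as a covariate the log2 fold change of Slc1a2 between hAPOE3 females and males was -0.01 in place of 0.23. The part of white matter in these values was not tested.

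The genes whose deviations were most like those of Slc1a2, among 11134 genes with a mean log2 CPM above 3, were Dlg2, Sipa1l1, Psd3, Nav3 and Tnik, with r from 0.97 to 0.98 over the 20 mice. Dlg2 encodes a scaffold of the neuronal postsynapse. For Gfap the most similar genes were 1810041L15Rik, Tgfa (a ligand of the EGF receptor), Csf1 (the growth factor of microglia), Slc38a10 and Tunar, with r from 0.78 to 0.82. Aqp4 followed Gfap with r = 0.64, while Slc1a2 and Slc1a3 had r = -0.22 and -0.18 with Gfap. Aldh1l1 ran opposite to both transporters, with r = -0.55 and -0.65. The 10 genes thus did not rise and fall as 1 block over the mice.

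Beyond the 10 genes, 89 other genes of astrocyte biology were listed in 9 groups, and 85 of them could be tested. Only Serpina3n, a secreted inhibitor of serine proteases that is a standard marker of reactive astrocytes, passed the test in a planned comparison, and it did so between genotypes in both sexes. It was at 31.4 to 53.3 CPM in the 10 hAPOE3 mice and at 128 to 206 CPM in the 10 hAPOE4 mice, with no overlap. The log2 fold change was 1.92 ± 0.15 in males and 2.11 ± 0.15 in females (adjusted p = 2.00e-07 and 4.09e-08 by edgeR), and it differed by 0.19 ± 0.21 between the sexes. Serpina3n belongs to a family of near-identical copies, among which the read assignment is uncertain.

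Serpina3n stood apart from the genes listed with it. The other 6 shared reactive genes (S1pr3, Timp1, Hspb1, Cxcl10, Cp and Aspg) had log2 fold changes from -0.02 to 0.51 in males and from -0.28 to 0.66 in females, and none passed. Cp, which encodes ceruloplasmin, had an unadjusted p of 0.0452 in females. Of 11 tested genes of the A1 set, which is linked to inflammation, and of 11 tested genes of the A2 set, which is linked to ischaemia, 0 passed in any planned comparison, and the medians between genotypes were 0.08 and 0.16 for A1 and -0.04 and 0.15 for A2, in males and females.

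**Figure D5:**
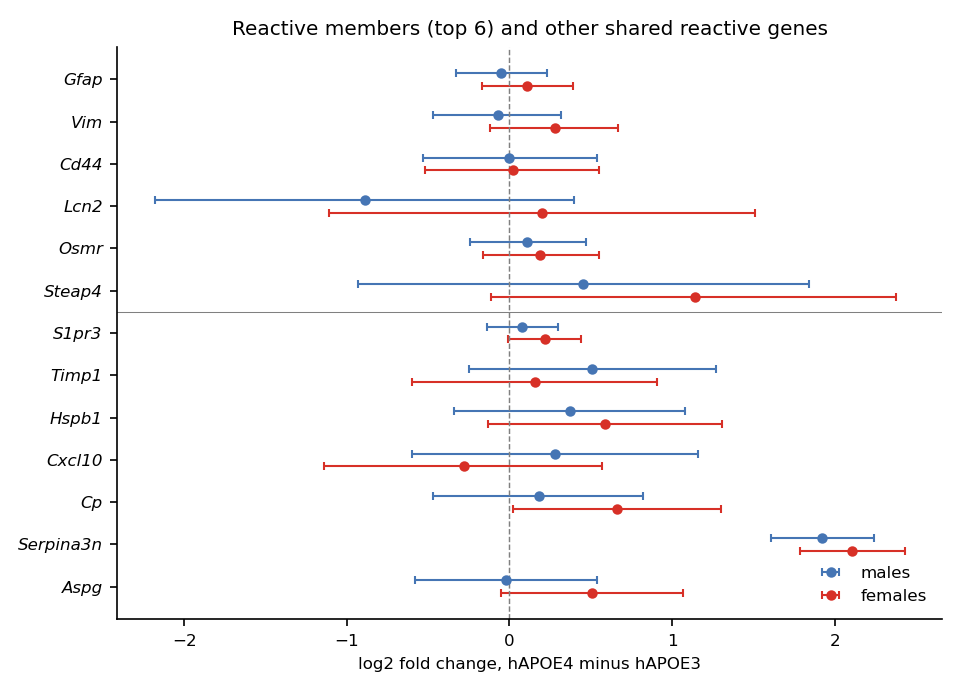
log2 fold change from hAPOE3 to hAPOE4 (horizontal axis) of the 6 reactive members, above the line, and the 7 other shared reactive genes, in males and females, with the 95% interval as a bar. Serpina3n lies at 1.92 and 2.11, and none of the other 12 genes passed the test.

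The remaining lists gave the same count. Of 20 other astrocyte markers, such as the gap junction gene Gja1, the potassium channel gene Kcnj10 and the transcription factor gene Sox9, 0 passed in any planned comparison. Between hAPOE4 females and males 19 of these 20 had the lower estimate in females, with a median log2 fold change of -0.16 beside -0.009 for all genes. Within hAPOE3 mice 16 of the 20 were lower in females, with a median of -0.11 beside 0.003 for all genes. In the hAPOE4 comparison the 4 identity genes of the main set had a median of 0.01, with 2 higher and 2 lower. The 6 reactive genes had a median of 0.34 there. None of the 4 other filament genes (Nes, Synm, Des and Plec) and none of the 8 genes of glutamate uptake and the glutamine cycle passed.

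Averaging over the sexes or the genotypes, comparisons added after these values were known, raised the number of mice behind each estimate to 10 against 10. The share of all genes called was 2.45% for hAPOE4 against hAPOE3 and 0.129% for females against males, and 0 of the 10 astrocyte genes passed in either. At an unadjusted p under 0.05, which 3898 of the 21724 genes had for genotype and 2181 for sex, the counts of the 10 were 0 and 2 by edgeR, and 0 and 3 by DESeq2. The 2 were Steap4, with a log2 fold change of 1.47 ± 0.45 from males to females (adjusted p = 0.272), and Osmr, with 0.25 ± 0.12 (adjusted p = 0.495).

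Gfap had a log2 fold change of 0.03 between genotypes in this average, with an interval from -0.17 to 0.22. Of the 85 other astrocyte genes, 3 passed between genotypes. These were Serpina3n at 2.02 ± 0.11, Amigo2, an adhesion gene of the A1 set, at 0.57 ± 0.12 (adjusted p = 0.0155), and Slc1a4, a transporter of neutral amino acids, at 0.26 ± 0.07 (adjusted p = 0.037, by edgeR). The estimate of Slc1a4 stayed within 0.24 to 0.30 in the 29 alternatives run, of which 13 kept the call. The call was lost on leaving out any 1 of 14 of the 20 mice, with adjusted p-values up to 0.0913, and kept without S144, S145, S155, S156, S167 or S175. It was also lost with the fibroblast score as a covariate and without the 4 mice of the highest choroid plexus score, where the adjusted p was highest at 0.181. The estimate of Amigo2 stayed within 0.50 to 0.63, and 27 of the 29 alternatives kept its call, each mouse left out in turn among them. It was lost with the fibroblast score, where the estimate was 0.53 (adjusted p = 0.0713), and without those 4 mice, where it was 0.58 (adjusted p = 0.120).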

How the data were processed

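RNA of the frozen hippocampus of each of the 20 mice was enriched by the authors for polyadenylated mRNA and sequenced as 75-base paired reads. Salmon 0.91 assigned the reads to the mouse cDNA set of Ensembl 95. The deposited counts are whole-number counts per gene made with tximport 1.6.0, and the deposited normalized counts are a signal scaled by DESeq2 1.18.1. The counts were used here for all results and the normalized counts for 1 alternative. Genes with low counts were removed by edgeR's filter (edgeR 4.0.16 in R 4.3.3), libraries were scaled by TMM, and the means of the 4 groups were fitted together with the quasi-likelihood test. Contrasts gave log2 fold changes, standard errors and 95% intervals, with Benjamini-Hochberg adjustment over all 21724 genes and a threshold of 0.05. CPM used the same library sizes. Groups came from the genotype and sex labels, and p-values measure the spread between mice.

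Alternatives were DESeq2 1.42.0, DESeq2's size factors, limma 3.58.1 on log2 of the normalized counts plus 1, no filter, only the groups compared, no mitochondrial genes, the choroid plexus score as a covariate and leaving out each mouse in turn. A score was the mean over a marker list of log2 CPM less the mean of each gene. The fibroblast and oligodendrocyte scores, leaving out 4 mice together and both averaged comparisons were added after the data were seen. On simulated counts of the 21724 genes for hAPOE4 against hAPOE3 males, with 200 genes changed 3-fold, the test recovered 89% of these. Of its calls 2.2% were false. The genes were drawn independently, without shared differences in tissue composition. The simulation thus does not tell how often smaller changes, such as those estimated for most of the 10 genes, would be found. Mice within a group differed by more than sampling noise in all 40 pairs, the smallest chi-square per degree of freedom being 9.16. The 10 genes and all lists were chosen with earlier results of these data known. The text names all 10 genes, list genes past the threshold and the 5 genes most like Gfap and Slc1a2. Other genes named from the lists were chosen after their values were seen. Gene positions and transcript lengths came from GENCODE vM21 (GRCm38), and promoter windows from RefSeq (GRCm38.p6). For Gfap and Slc1a2 the RefSeq window lies inside the GENCODE gene. Lcn2 and Steap4 had the fewest counts, and within each group their SD was above what counting error alone would give.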

Additional observations from a re-analysis of the deposited data

Results flagged for a closer look

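Within each group of 5 mice, the highest and the lowest log2 CPM of each of the 10 genes was compared with the other 4. Of 40 sets of 5 values, 1 held a mouse that stood apart. Vim was at 41.9 CPM in hAPOE4 female S168, below the 64.2 to 70.1 CPM of the other 4, and the gap made up 0.829 of the range of the group. A gap above 0.71 of the range was taken to stand apart, which chance gives in about 1 in 20 sets of 5. The same mouse had the lowest choroid plexus and fibroblast sums of its group, 104 and 85.2 CPM, and the part of these cells in its Vim level was not tested.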

How the results depend on the processing

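The count of the 10 genes past the threshold was 0 under every alternative run in each of the 7 comparisons, including each mouse left out, and the smallest adjusted p of any of them was 0.0787, for Steap4 in females against males averaged over genotypes, without S168. Serpina3n kept its call in all alternatives run. Of 1148 recomputed log2 fold changes of the 10 genes, 88 changed sign, and the rest kept it. These cover the 5 planned comparisons. Of the averaged comparisons they hold only Steap4 and Osmr in females against males, so signs of the other averaged estimates were not counted. Below, male or female genotypes stands for hAPOE4 against hAPOE3 in that sex, hAPOE3 or hAPOE4 sexes for females against males of that genotype, and values are log2 fold changes of the opposite sign to the one in the fit described above, or, for single mice left out, the range that crossed 0. With the choroid plexus score as a covariate Slc1a2 was 0.02 in the female genotypes and Gfap -0.01 in the hAPOE3 sexes. With limma on normalized counts Slc1a2 was 0.01 in the female genotypes, Vim 0.08 in the hAPOE3 sexes and Cd44 -0.03 in the interaction. With the fibroblast score Cd44 was -0.05 and Steap4 -0.09 in the male genotypes. Vim was -0.06, Cd44 -0.14, Lcn2 -0.48, Steap4 -0.17, Aqp4 -0.08 and Slc1a2 0.05 in the female genotypes. Gfap was -0.04 in the hAPOE3 sexes, Vim -0.04 and Lcn2 -0.47 in the hAPOE4 sexes, and Cd44 -0.09, Osmr -0.02, Steap4 -0.09 and Aldh1l1 -0.02 in the interaction. With the oligodendrocyte score Vim was 0.02 and Cd44 -0.04 in the male genotypes, Vim 0.20, Slc1a2 -0.01 and Slc1a3 -0.04 in the hAPOE3 sexes, Slc1a2 -0.05 and Slc1a3 -0.01 in the hAPOE4 sexes, and Aldh1l1 -0.01 and Slc1a3 0.02 in the interaction. Without the 4 mice of the highest choroid plexus score, which left 2 hAPOE4 females and took out the 4 highest Steap4 levels, Lcn2 was -0.29, Steap4 -0.41 and Slc1a2 0.01 in the female genotypes, Gfap -0.01 in the hAPOE3 sexes, Lcn2 -0.31 and Steap4 -0.16 in the hAPOE4 sexes, and Osmr -0.01 and Steap4 -0.87 in the interaction. Leaving out 1 mouse at a time gave, in the male genotypes, Gfap from -0.17 to 0.02, Vim from -0.24 to 0.07, Cd44 from -0.17 to 0.25 and Slc1a2 from -0.03 to 0.25. It gave Cd44 from -0.11 to 0.28, Lcn2 from -0.05 to 0.42 and Slc1a2 from -0.16 to 0.05 in the female genotypes, and Gfap from -0.08 to 0.10 and Vim from -0.13 to 0.14 in the hAPOE3 sexes. It gave Aqp4 from -0.15 to 0.08 and Slc1a2 from -0.01 to 0.18 in the hAPOE4 sexes, and in the interaction Cd44 from -0.23 to 0.28, Osmr from -0.05 to 0.18, Aldh1l1 from -0.04 to 0.14 and Slc1a3 from -0.15 to 0.06. The causes were not tested. No paired analysis was possible because the mice carry no number shared between groups. Lcn2 and Steap4 had the fewest counts, and their SD in a group was 41.4% to 103% of the mean, where counting error alone would give 11.9% to 26.4%.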
